A study of Homo sapiens with 208 samples.

Results

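PC9M2 is a gefitinib-resistant line that was isolated as surviving clones of PC9, a human lung adenocarcinoma line with an activating EGFR deletion, after long culture with the drug. The sample labels call it PC9GRM2. The data described here are the PC9M2 arrays under gefitinib without EGF, chosen by the labels for line, treatment and time. These were 26 arrays, 1 at each of 26 time points from 0 to 24 h, and 1 of the 8 such courses of the series (both lines under 4 treatments). The comparison set the 5 arrays at 20, 21, 22, 23 and 24 h (late) against the 5 arrays at 0, 0.5, 1, 2 and 3 h (early), 10 arrays in all. The 16 arrays from 4 to 19 h gave the course between them. All cells had been starved for 48 h before the series of samples began. Gefitinib, which inhibits the EGFR kinase, was given at 0.5 uM. The 0 h array carries the drug label too, so the early arrays are taken as early hours under the drug and not as an undrugged baseline. The labels do not say when the drug was added relative to 0 h, so the length of exposure at each hour is not known. Untreated PC9M2 cells, PC9M2 cells with 0.5 uM gefitinib and 100 ng/ml EGF, and PC9 cells with 0.5 uM gefitinib were sampled at the same 26 time points and serve as comparisons. PC9M2 is a single line without MET amplification or the gatekeeper mutation of EGFR according to the study, so that nothing here separates resistance from other properties of that line. Each time point is 1 array, and the 5 hours of a group stand as its replicates. The p-values therefore measure the spread between neighbouring hours, drift within a group included, and not that between separate cultures.

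EGFR signals through RAS, RAF and ERK, and active ERK induces transcription factors such as FOS and EGR1 within minutes. It also induces its own brakes, among them the ERK phosphatase DUSP6 and the Sprouty proteins, so that their mRNAs are a common readout of ERK output. In EGFR-mutant lung cancer cells, inhibition of the receptor lowers these mRNAs and halts cell division before S phase, where E2F factors drive the genes of DNA replication and, later in the cycle, FOXM1 and other factors drive those of mitosis.

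The values are log2 signals of 1 probe per gene on Agilent whole human genome arrays after quantile normalization. On the 26 arrays, 26678 to 32950 features other than controls lay well above background and none was saturated. Each array held 45015 features, controls included. Each slide held the 4 treatments of 1 time point, and no scan day held both early and late arrays. Time therefore cannot be told apart from slide and scan day in the gefitinib arrays alone. For that reason the late minus early difference was also taken on the gefitinib minus untreated difference within each slide, from which anything that moves both arrays of a slide alike cancels. The slides of 10 to 15 h stood apart in both treatments. Against the flanking slides of 7 to 9 and 16 to 18 h, 2649 genes (20% of those tested) passed the threshold under gefitinib and 2947 (22.2%) without treatment. On the within-slide difference limma called 0, with 260 at an unadjusted p under 0.05. Epithelial CDH1, EPCAM, KRT7, KRT8, KRT18 and KRT19 were well above background on 10 of 10 arrays. The lung lineage factor NKX2-1 was so on 0 of 10 arrays, although the lung aspartic protease NAPSA was on 10 of 10.

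In all, 2891 of 13263 genes tested (21.8%) were higher late than early and 2489 (18.8%) lower at an adjusted p of 0.05 with limma, of which 780 and 457 differed at least 2-fold. Among all genes tested, called or not, late and early arrays did not overlap for 2187 with a higher late mean and 1731 with a lower one. The median late minus early difference over all genes was 0.02, and the median size of the difference was 0.31 on the log2 scale. The untreated cells on the same slides moved too. Without treatment 3466 genes (26.1%) were higher late and 3069 (23.1%) lower, with a median size of 0.40. On the within-slide difference, 3146 genes (23.7%) had a late minus early value above that of untreated cells and 3224 (24.3%) below. Of the 5380 genes called under gefitinib, 2577 were called with the same sign within slides and 550 with the opposite sign. Among the former, 1442 had not been called in untreated cells. With EGF added to gefitinib, 2796 genes (21.1%) were higher late and 2431 (18.3%) lower. Of the genes called under gefitinib alone, 2331 higher and 1955 lower ones were called in the same direction there, and 0 in the opposite one. Counts in the gene groups below are to be read against the shares over all genes. These were 21.8% higher and 18.8% lower under gefitinib, 26.1% and 23.1% without treatment, and 23.7% and 24.3% within slides.

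For genes called and at least 2-fold different, a running median was taken over each intermediate hour and the hours just before and after it. The first of the 16 hours at which it had passed the midpoint between the early and late means was 5 h at the median for rises (quartiles 4 and 8 h). For falls it was 6 h (quartiles 4 and 9 h). The earliest hour it could fall on was 4 h. At 4 h the running median takes in an early array and at 19 h a late one. Over 4 to 19 h, hours that the late against early comparison does not use, 910 genes (6.86%) had a rising linear slope and 645 (4.86%) a falling one past the threshold. The slope had the sign of the late minus early difference for 77.1% of the genes called higher and 80.6% of those called lower. Residuals of neighbouring hours were correlated (median 0.23 at a lag of 1 h), so the slope's p-values are too small.

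Of 18 ERK output genes, 9 rose and 2 fell under the drug, where 21.8% and 18.8% of all genes tested were called. Their median difference was 0.75, against 0.02 over all genes. In untreated cells 4 were higher and 4 lower late, with a median of -0.07 (26.1% and 23.1% called over all genes, median 0.02). Within slides 12 were called above and 2 below untreated cells, with a median of 0.99 (23.7% and 24.3% over all genes, median -0.05). With EGF beside gefitinib 2 rose and 2 fell past the threshold (21.1% and 18.3% over all genes), while the median was 0.76. The group began far below untreated cells, with a median gefitinib minus untreated difference of -1.69 early, and ended nearer to them at -0.75.

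DUSP6, the phosphatase that turns off ERK, moved most in the group. Its log2 signal was 7.76, 7.86, 8.02, 8.38 and 9.07 at the 5 early hours and 11.87, 11.89, 12.02, 11.75 and 11.69 at the 5 late ones. No late array overlapped an early one, and the early values already climbed from 0 to 3 h. The change was a log2 difference of 3.63 (SE 0.22, adjusted p = 1.81e-06). The signal was 10.25 at 4 h and 11.89 at 8 h, and from 10 h on it ran from 11.50 to 12.15. In untreated cells DUSP6 ran from 12.13 to 13.91 over the 26 hours, so that the late gefitinib arrays were still below every untreated array. The difference from untreated cells within slides was -4.30 early and -1.60 late.

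SPRY4, another such brake, a Sprouty inhibitor of the RAS pathway, read 6.09, 4.98, 4.97, 5.83 and 7.40 early and 9.02, 9.15, 8.95, 8.87 and 8.80 late. The groups did not overlap, with a log2 difference of 3.10 (SE 0.40, adjusted p = 0.000162), against -0.12 in untreated cells. FOS, the AP-1 transcription factor subunit, read 6.42, 6.10, 6.66, 7.70 and 9.12 early and 10.30, 10.41, 10.85, 10.52 and 10.46 late, and rose by 3.31 (SE 0.49, adjusted p = 0.000417). The lowest FOS values lay at 0, 0.5 and 1 h, and from 4 h on the values lay in the range of the untreated course, where late and early hours differed by 0.25. EPHA2, an ephrin receptor kinase, rose by 2.12 (adjusted p = 0.000581), the pleckstrin-homology protein PHLDA1 by 1.90 (adjusted p = 0.00013) and SPRY2 by 1.13 (adjusted p = 3.46e-05). CCND1, which encodes cyclin D1 and lets ERK activity reach the cell cycle, rose by 1.65 (adjusted p = 0.000207) against 0.05 in untreated cells. Smaller rises were called for DUSP4 (0.73), DUSP5 (0.58) and SPRY1 (0.84). The ETS factor ETV4 (-0.41) and the early response gene IER3 (-0.27) fell, the latter not without any 1 of 7 arrays (adjusted p up to 0.0892). ETV5 (-0.49, adjusted p = 0.447) and SPRED1 (0.77, adjusted p = 0.281), which inhibits RAS activation, did not pass.

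**Figure D1:**
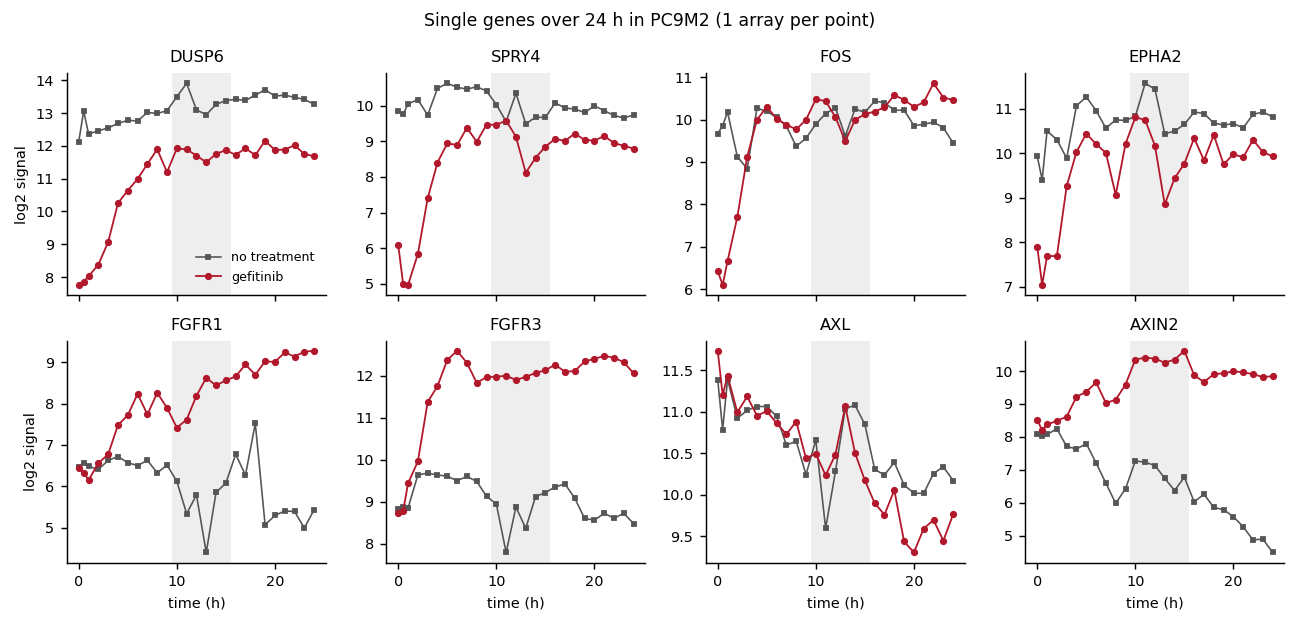
Log2 signal (vertical axis) of 8 genes by time in hours (horizontal axis) in PC9M2 under gefitinib (red circles) and without treatment (grey squares), 1 array per point, with the slides of 10 to 15 h shaded. DUSP6, SPRY4, FOS and EPHA2 climbed within the early hours toward the untreated course, FGFR1 and FGFR3 passed above it, AXL fell, and the AXIN2 courses parted in opposite directions.

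Of 16 immediate-early genes, 13 rose and 0 fell, where 21.8% and 18.8% of all genes were called. Their median difference was 0.80 (0.27 in untreated cells). The zinc finger factor EGR1 read 7.32, 7.56, 7.49, 9.52 and 10.90 early and 10.28, 10.40, 10.51, 10.40 and 10.95 late, a rise of 1.95 (adjusted p = 0.0293) in which early and late arrays overlapped. Without any 1 of 7 arrays the call was lost (adjusted p up to 0.0678). EGR2 rose by 1.51, JUN by 1.28, JUNB by 1.20 and the antiproliferative gene BTG2 by 1.25. Within slides 6 of the 16 were called above untreated cells and 2 below, and JUN, which also rose in untreated cells (1.01), was not among them (adjusted p = 0.321). The cAMP response letters TGACGTCA stood in 1 of 13 windows of 250 bases before the start of these genes and in 1.77% of all such windows, and the CArG box of serum response factor in 1 of 13 against 0.103%.

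Of 12 genes of the ERBB receptors, their ligands and inhibitors, 5 rose and 0 fell (21.8% and 18.8% over all genes, median 0.46, untreated 0.44). EGFR itself read 11.07 early and 10.97 late and was not called (adjusted p = 0.499). Its partner ERBB2 read 13.80, 13.13, 13.22, 13.31 and 13.45 early and 14.07, 13.99, 14.33, 14.22 and 14.51 late. ERBB2 rose by 0.85 (adjusted p = 0.000966) while the untreated difference was -0.64 and the within-slide one 1.49 (adjusted p = 9.78e-05). ERBB4 rose by 1.46, as much as in untreated cells (1.48), and was well above background on only 2 of 5 early arrays. ERRFI1, the feedback inhibitor of EGFR kinase, rose by 1.50 (adjusted p = 0.00328) and by 0.98 without treatment. The ligand HBEGF rose by 0.62, far less than in untreated cells (2.49, within slides -1.86, adjusted p = 8.87e-06). The fifth call, EREG, was well above background on 0 of 5 early and 1 of 5 late arrays, and its size is not given.

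Among 12 other receptor kinases and ligands, 4 rose and 2 fell (median 0.21, untreated -0.30), shares not far from the 21.8% and 18.8% called over all genes. The largest rises were those of the fibroblast growth factor receptors FGFR1 and FGFR3. FGFR1 read 6.45, 6.33, 6.15, 6.56 and 6.77 early and 9.01, 9.24, 9.14, 9.26 and 9.28 late. The groups lay over 2 log2 units apart at their nearest points, and the rise was 2.73 (SE 0.12, adjusted p = 2.41e-07). In untreated cells the difference was -1.21, and the within-slide difference was 3.94 (adjusted p = 4.35e-08). FGFR3 read 8.73, 8.78, 9.44, 9.96 and 11.38 early and 12.41, 12.48, 12.44, 12.33 and 12.06 late, a rise of 2.69 (SE 0.43, adjusted p = 0.00071). Its early arrays climbed with time from the untreated level (8.83 to 9.68 early), and the signal was 11.76 at 4 h. The receptor kinase AXL and the hepatocyte growth factor receptor MET went the other way. AXL fell by 1.75 (adjusted p = 1.08e-05), more than in untreated cells (-0.94, within slides -0.81), and its ligand GAS6 rose by 0.49. MET fell by 1.20 (adjusted p = 0.00203) against -0.06 in untreated cells, and it was well above background on 4 of 5 early and 2 of 5 late arrays. The insulin-like growth factor receptor IGF1R rose by 0.37 (adjusted p = 0.0476), a call lost without any 1 of 8 arrays (adjusted p up to 0.105).

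The genes of S phase and those of mitosis went apart. Of 26 DNA replication genes, 21 rose and 0 fell, with a median difference of 0.74. Of 25 mitotic genes, 0 rose and 18 fell, with a median of -0.56. Over all genes 21.8% were called higher and 18.8% lower. In untreated cells 24 of the replication genes were higher late with a median of 1.21, and within slides 0 were called above and 11 below untreated cells. The mitotic genes were mixed in untreated cells, with 6 higher, 5 lower and a median of 0.14, and within slides 1 was called above and 19 below. In bulk RNA, fewer cells in a phase of the cycle and less of its mRNA per cell cannot be told apart.

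The median of the replication genes relative to the early mean was -0.31 at 6 h, 0.22 at 12 h, 0.62 at 18 h and 0.77 at 24 h. In untreated cells it was 0.63, 1.06, 1.12 and 1.22. Over 4 to 19 h 17 of the 26 had a rising slope past the threshold and 0 a falling one, where 6.86% and 4.86% of all genes were called. RRM2, the regulatory subunit of ribonucleotide reductase, read 7.33, 6.95, 6.04, 7.06 and 6.45 early and 8.83, 9.22, 8.82, 8.61 and 8.71 late. Its groups did not overlap, with a log2 difference of 2.08 (SE 0.23, adjusted p = 6.52e-05). Cyclin E2 (CCNE2) was well above background on 0 of 5 early arrays and 5 of 5 late ones, and was at least 3.00-fold higher late (adjusted p = 0.000106). Such a bound sets the late mean against the mean over early arrays of the higher of the dimmest signal well above background and the probe's own signal. The S phase transcription factor E2F1 rose by 1.80 (adjusted p = 4.7e-05), thymidylate synthase (TYMS) by 1.57 (adjusted p = 1.61e-05), the replication helicase subunit MCM6 by 1.11 (adjusted p = 4.61e-05) and the sliding clamp PCNA by 0.90 (adjusted p = 0.00117). CCNE1 (0.01, adjusted p = 0.95) and the licensing factor CDT1 (0.13, adjusted p = 0.483) did not pass, although both were higher late in untreated cells past the threshold.

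The promoter of MCM6 is shown as an example of the E2F letters in a replication gene. The 250 bases before its start are at chr2:135876444-135876693, minus strand, in RefSeq's annotation of GRCh38.p14. In all, 12 motifs were searched on both strands. Capitals mark TTTGGCGC on the printed strand together with TTTCGCGC on the other, which overlap, giving 4 matches in 2 stretches.
MCM6: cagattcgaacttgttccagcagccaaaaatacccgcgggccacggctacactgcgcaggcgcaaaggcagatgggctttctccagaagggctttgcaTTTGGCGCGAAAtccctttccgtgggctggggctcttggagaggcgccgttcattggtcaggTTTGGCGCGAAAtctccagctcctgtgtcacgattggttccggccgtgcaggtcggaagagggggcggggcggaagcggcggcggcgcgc
The letters TTTCCCGC, TTTGGCGC or TTTCGCGC, on either strand, stood in the windows of 10 of 22 replication genes with a RefSeq entry and in 2.38% of all 27305 windows.

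Of the mitotic genes, PLK1, the kinase of mitotic entry, read 9.80, 9.54, 9.58, 9.59 and 9.80 early and 8.24, 8.04, 8.04, 8.09 and 8.29 late. It fell by 1.53 (SE 0.09, adjusted p = 1.69e-06), and the untreated difference was -1.73. The kinetochore motor CENPE read 10.19, 10.12, 9.82, 10.13 and 10.03 early and 8.92, 8.99, 8.15, 8.50 and 8.78 late. It fell by 1.39 (adjusted p = 7.74e-05) against 0.03 in untreated cells, and the within-slide difference was -1.42 (adjusted p = 3.73e-06). The anaphase activator CDC20 (-1.01), the mitotic transcription factor FOXM1 (-0.94), the spindle kinase AURKA (-0.90) and securin (PTTG1, -1.14) fell, and of these PTTG1 alone was lower late in untreated cells past the threshold. Cyclin A2 (CCNA2, -0.20) and CDK1 (-0.07) did not pass. The letters TTTGAA of the cell cycle homology region stood in 10 of 20 windows of mitotic genes and in 13.6% of all windows, and CCAAT in 17 of 20 against 33%. Of 12 cyclin D and CDK inhibitor genes 3 rose, CCND1, CCND3 (1.09) and the CDK4 and CDK6 inhibitor CDKN2C (0.81), and 0 fell. Over all genes 21.8% were called higher and 18.8% lower, so the count of rises is near the background. The group's median was 0.10, and in untreated cells 5 were higher and 2 lower (median 0.42). The inhibitor p27 (CDKN1B) read 8.10 early and 7.58 late (adjusted p = 0.164).

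**Figure D2:**
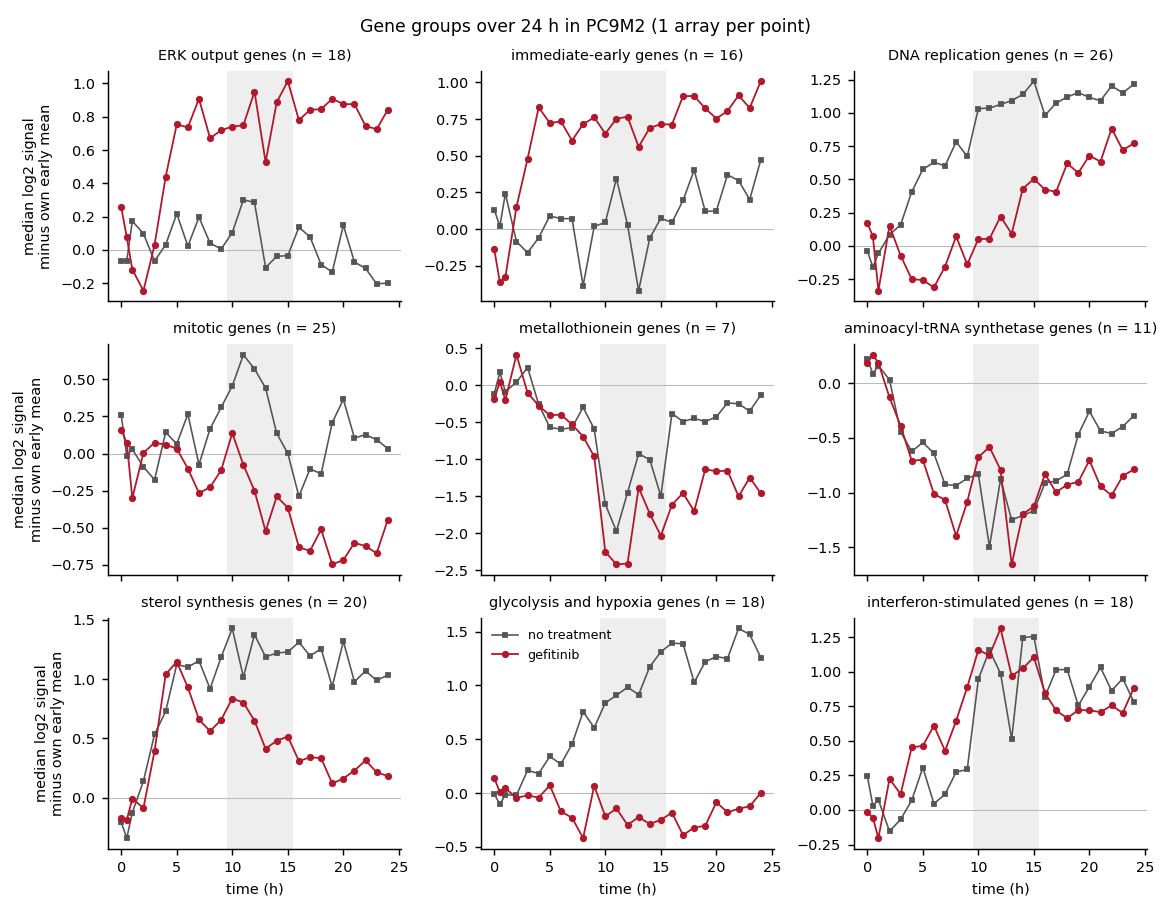
Median log2 signal of 9 gene groups, each gene taken relative to its own early mean (vertical axis), by time in hours (horizontal axis) in PC9M2 under gefitinib (red circles) and without treatment (grey squares), 1 array per point, with the slides of 10 to 15 h shaded. ERK output and immediate-early genes rose within 5 h under gefitinib, replication genes from about 14 h, while sterol genes rose and then returned and glycolysis genes stayed near the early level as the untreated course rose.

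Metallothioneins are small cysteine-rich proteins that bind zinc and copper. Of 7 tested, 7 fell under gefitinib with a median of -1.31, against 3 lower late in untreated cells with a median of -0.27. Within slides 7 of 7 were called below untreated cells (median -1.11). Because the family members are near-identical, their probes may share targets, and the 7 are not independent. MT2A, the most abundant form in most tissues, read 13.82, 14.12, 13.65, 14.53 and 13.90 early and 12.84, 12.85, 12.46, 12.76 and 12.56 late. It fell by 1.31 (SE 0.16, adjusted p = 0.000124), without overlap, and differed by -0.02 in untreated cells. MT1E (-1.87, adjusted p = 0.000117), MT1G (-1.61), MT1H (-1.38), MT1X (-1.26), MT1A (-0.88) and MT1F (-0.50) fell as well. On the slides of 10 to 15 h the group dipped further in both treatments, to -2.42 under gefitinib and -1.97 without treatment at 11 h. From 16 h on the courses lay apart, with -1.70 against -0.45 at 18 h. 

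The promoters of 3 metallothioneins are in the RefSeq table and are shown because all members tested fell and the family is known to share a promoter element. They lie on the plus strand of GRCh38.p14, 250 bases before each start, MT2A at chr16:56608334-56608583, MT1X at chr16:56682220-56682469 and MT1H at chr16:56669564-56669813. Capitals mark the core of the metal response element, TGCACNC or TGCGCNC, on either strand.
MT2A: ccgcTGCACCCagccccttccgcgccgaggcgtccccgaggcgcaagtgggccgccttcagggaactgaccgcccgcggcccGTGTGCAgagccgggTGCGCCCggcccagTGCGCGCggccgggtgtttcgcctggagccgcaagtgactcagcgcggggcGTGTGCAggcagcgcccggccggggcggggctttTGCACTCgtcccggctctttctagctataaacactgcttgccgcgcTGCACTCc
MT1X: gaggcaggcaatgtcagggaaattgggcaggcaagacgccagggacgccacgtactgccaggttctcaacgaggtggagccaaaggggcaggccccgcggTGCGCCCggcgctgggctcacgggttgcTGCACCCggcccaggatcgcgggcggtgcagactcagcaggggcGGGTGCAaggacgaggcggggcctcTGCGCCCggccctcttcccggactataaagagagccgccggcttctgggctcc
MT1H: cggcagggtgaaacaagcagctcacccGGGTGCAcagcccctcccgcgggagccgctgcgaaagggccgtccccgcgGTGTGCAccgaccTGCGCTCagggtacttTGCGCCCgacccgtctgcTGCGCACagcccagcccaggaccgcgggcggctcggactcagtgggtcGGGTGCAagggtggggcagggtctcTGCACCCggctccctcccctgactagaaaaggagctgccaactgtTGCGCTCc
The core occurred 7 times in the window of MT2A, 4 times in that of MT1X and 8 times in that of MT1H. At least 1 match stood in 24.7% of all windows and at least 3 in 1.56%.

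Of 16 ATF4 target genes, 8 fell and 4 rose (median -0.51, untreated 0.16). Of 11 aminoacyl-tRNA synthetase genes 9 fell and 0 rose (median -0.85, untreated -0.41, where 4 were lower). Over all genes 18.8% were called lower and 21.8% higher. Asparagine synthetase (ASNS) read 16.03, 15.92, 15.79, 15.79 and 15.70 early and 13.70, 13.75, 13.75, 13.42 and 14.34 late. The groups did not overlap, with a log2 difference of -2.06 (SE 0.15, adjusted p = 5.01e-06), and the untreated difference was smaller (-1.42, within slides -0.64, adjusted p = 0.00348). The amino acid transporter SLC7A5 (-2.06, adjusted p = 5.49e-06), the cystine transporter SLC7A11 (-1.99, adjusted p = 0.000105) and the serine synthesis enzymes PSAT1 (-1.72) and PHGDH (-0.96) fell too. SLC7A11 did not pass in untreated cells, where its difference was 0.45. ATF4 itself fell by 0.54 (adjusted p = 0.00183). The 4 that rose were the transcription factor CEBPB (0.98), the mTORC1 inhibitor DDIT4 (0.72), the lipoprotein receptor VLDLR (0.55) and the glutathione-degrading CHAC1 (0.49). Among the synthetases WARS1 (-1.48, adjusted p = 5.93e-06), MARS1 (-1.35) and IARS1 (-1.23), which charge the tRNAs of tryptophan, methionine and isoleucine, fell most, and the group's median had come down to -1.01 by 6 h, with -0.64 in untreated cells. The letters TGATGNAA stood in 2 of 13 windows of ATF4 targets and 2 of 9 of synthetases, against 3.19% of all windows.

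Of 20 sterol synthesis genes 5 rose and 0 fell (median 0.21), against 19 higher and a median of 1.03 without treatment. Within slides 18 were called below untreated cells. Over all genes 21.8% were called higher under gefitinib, 26.1% higher without treatment and 24.3% below untreated cells within slides. The median reached 1.15 at 5 h under gefitinib and 1.12 without it, and then came down to 0.12 at 19 h, where untreated cells held 0.94. IDI1, an isoprenoid isomerase, read 11.44, 11.46, 11.96, 11.70 and 12.32 early and 12.32, 12.58, 12.37, 12.44 and 12.20 late, a rise of 0.61 (adjusted p = 0.0136) against 1.58 without treatment. FDPS, the farnesyl diphosphate synthase, rose by 0.43 against 1.45. The letters TCACNCCAC stood in 1 of 14 windows of sterol genes and 0.875% of all windows, and the longer sterol response element also in 1 of 14, against 0.0366%.

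Of 18 glycolysis and hypoxia genes 3 rose and 5 fell (median -0.17), against 15 higher and 0 lower without treatment (median 1.42). Over all genes 21.8% and 18.8% were called under gefitinib, and 26.1% and 23.1% without treatment. Within slides 16 were called below untreated cells and 0 above. Phosphoglycerate kinase PGK1 read 10.01, 9.67, 9.67, 9.21 and 9.74 early and 9.00, 9.13, 9.19, 8.81 and 9.17 late. It fell by 0.60 (adjusted p = 0.0064), while the untreated means were 9.87 early and 10.97 late (within slides -1.70, adjusted p = 9.98e-06). BNIP3, a mitophagy receptor induced by low oxygen, fell by 0.58 (adjusted p = 0.000384) against 1.73. Lactate dehydrogenase LDHA (0.63), the peptide hormone ADM (0.83) and the oxygen sensor EGLN3 (1.02) rose, each by less than in untreated cells (1.47, 1.62 and 1.58). The letters ACGTG stood in 9 of 16 windows of the group and 18.7% of all windows. Of 9 fatty acid synthesis genes 2 rose and 1 fell, counts not far from the shares over all genes. The desaturase SCD read 9.27 early and 9.37 late (adjusted p = 0.586) and was higher late by 1.95 without treatment.

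**Figure D3:**
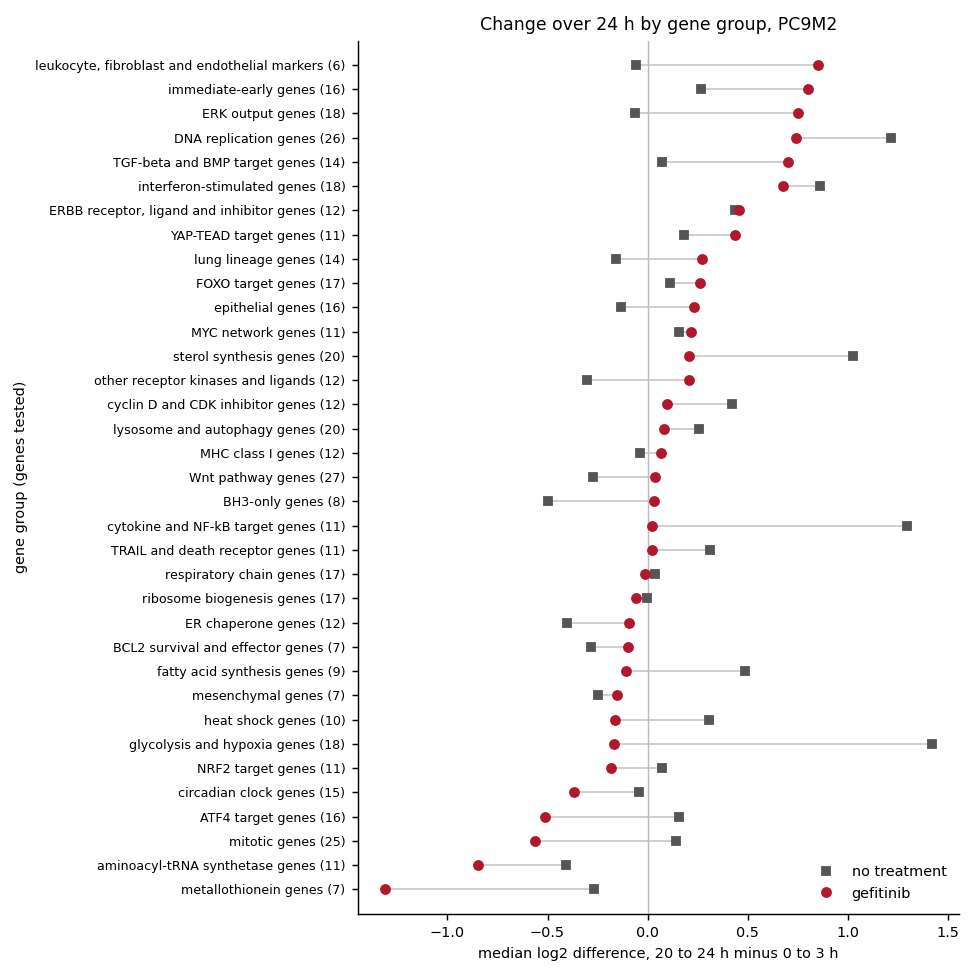
Median late minus early log2 difference (horizontal axis) of 35 gene groups (vertical axis, with the number of genes tested) under gefitinib (red circles) and without treatment (grey squares) in PC9M2. Metallothionein, synthetase, mitotic and ATF4 target genes lie lowest under gefitinib, and the glycolysis, cytokine and sterol groups lie far to the right without treatment, at 1.42, 1.29 and 1.03.

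Of 18 interferon-stimulated genes, 12 rose and 0 fell under gefitinib (median 0.67), and 12 were higher and 1 lower without treatment (median 0.86). Within slides 4 were called above untreated cells and 2 below. Over all genes 21.8% and 18.8% were called under gefitinib, 26.1% and 23.1% without treatment, and 23.7% and 24.3% within slides. The antiviral RNA sensors OAS3, which rose by 1.71 (adjusted p = 1.14e-05), and OAS1, by 1.46 (adjusted p = 2.69e-05), led the group, with 1.78 and 0.54 in untreated cells. IFIT1, which binds viral RNA caps, read 7.41, 7.13, 6.64, 7.90 and 7.46 early and 8.94, 8.82, 8.72, 8.63 and 8.57 late. It rose by 1.43 (adjusted p = 0.000284) and in untreated cells by 1.73. The interferon signalling factor IRF9 rose by 1.20 and STAT2 by 1.15.

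The window of IFIT1, chr10:89392373-89392622, plus strand, is shown with the interferon response element, GAAA and GAAA with any 2 bases between them on either strand, in capitals.
IFIT1: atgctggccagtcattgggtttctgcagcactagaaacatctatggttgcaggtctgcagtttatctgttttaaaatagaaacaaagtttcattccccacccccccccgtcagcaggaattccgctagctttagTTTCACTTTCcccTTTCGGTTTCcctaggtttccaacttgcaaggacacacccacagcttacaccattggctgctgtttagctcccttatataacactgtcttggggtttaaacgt
It occurred 2 times there, in the windows of 9 of 15 genes of the group and in 3.07% of all windows.

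CIITA, the transactivator of MHC class II genes, read 3.62, 2.31, 2.57, 2.59 and 3.39 early and 6.71, 6.81, 6.89, 6.76 and 6.59 late. It was well above background on 0 of 5 early arrays and 5 of 5 late arrays, and was at least 6.74-fold higher late (adjusted p = 1.81e-06). On untreated arrays it was so on 0 of 10 at these hours. HLA-DMB, which loads peptides onto class II molecules, was on the same footing at least 4.01-fold higher (adjusted p = 8.38e-08). Of 12 MHC class I genes 4 rose and 0 fell (median 0.07), namely the immunoproteasome subunits PSMB8 (0.64) and PSMB9 (0.51), the peptide transporter TAP1 (0.57) and the class I transactivator NLRC5 (0.53), whose brightest probe differed by -0.83. HLA-B (-0.21) and HLA-C (0.07) did not pass, and their probes may cross-hybridise. Over all genes 21.8% were called higher and 18.8% lower.

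Of 11 TRAIL and death receptor genes 5 rose and 1 fell (21.8% and 18.8% over all genes, median 0.02). TNFSF10, the death ligand TRAIL, read 8.43, 8.84, 9.17, 10.17 and 9.94 early and 11.50, 11.61, 11.28, 11.28 and 11.12 late. It rose by 2.05 (SE 0.30, adjusted p = 0.000404) without overlap, against -0.38 in untreated cells. Caspase 8, the initiator of death receptor killing, fell by 1.23 (adjusted p = 0.00111), but another, dimmer CASP8 probe differed by 0.51 the other way, so that the direction depends on the probe. Its inhibitor CFLAR rose by 1.06 (adjusted p = 0.00022). Of 8 BH3-only genes 3 fell and 0 rose: BMF (-1.28), BIK (-1.04) and BBC3 (-0.56). For BMF the untreated difference was larger (-2.61, within slides 1.33). BCL2L11, which encodes the BIM protein known for killing EGFR-mutant cells under such drugs, read 3.88 early and 4.52 late (adjusted p = 0.0742), with 2 early and 3 late arrays well above background for its most variable probe. Of the 3 other BCL2L11 probes the brightest read 12.33 early and 12.47 late, and the remaining ones differed by -0.25 and -0.32. Of 7 BCL2 survival and effector genes MCL1 alone rose (0.69, adjusted p = 0.00449), and 0 fell.

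Of 11 cytokine and NF-kB target genes 3 rose and 3 fell under gefitinib (median 0.02), not far from the 21.8% and 18.8% called over all genes. Without treatment 8 were higher and 1 lower (26.1% and 23.1% over all genes, median 1.29). The apoptosis inhibitor BIRC3 read 9.14, 9.37, 9.19, 9.44 and 9.91 early and 8.28, 8.36, 8.22, 8.29 and 8.67 late. It fell by 1.05 (adjusted p = 0.000362) while untreated cells were higher late by 2.94, and the within-slide difference of -3.99 (adjusted p = 3.81e-08) was among the 6 lowest of genes called with the same sign in both comparisons. The inflammatory cytokine IL1B fell by 1.48, less than in untreated cells (-3.02, within slides 1.54). The adhesion molecule ICAM1 rose by 0.91 and the neutrophil chemokine CXCL1 by 1.01, the latter against 2.98 without treatment. The chemokine CXCL8 was well above background on 0 of 10 gefitinib arrays, on 0 of 5 early untreated arrays and on 5 of 5 late ones.

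Of 14 TGF-beta and BMP target genes 9 rose and 1 fell (21.8% and 18.8% over all genes, median 0.70, untreated 0.07). ID1, an inhibitor of differentiation factors, rose by 1.47 (adjusted p = 0.00336) against -0.25 in untreated cells, the matrix protein TGFBI by 0.80 (adjusted p = 7.94e-05) and the pseudoreceptor BAMBI by 0.71 (adjusted p = 0.000236). ID3 rose by 1.20, less than in untreated cells (2.06). The activin subunit INHBA fell by 0.46 (adjusted p = 0.0484), a call lost without any 1 of 8 arrays (adjusted p up to 0.107).

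Because the study asked whether Wnt and beta-catenin activity is raised in PC9M2 over PC9, 27 Wnt pathway genes were tested. Late against early hours within PC9M2 is another contrast and does not address that question. Under gefitinib 8 rose and 4 fell (21.8% and 18.8% called over all genes, median 0.04), and within slides 8 were called above and 3 below untreated cells (23.7% and 24.3% over all genes, median 0.38). The shares called were thus close to those over all genes, apart from the few below untreated cells. AXIN2, a negative feedback target of beta-catenin, read 8.52, 8.20, 8.38, 8.49 and 8.62 early and 9.99, 9.96, 9.91, 9.82 and 9.84 late under gefitinib. In untreated cells it read 8.07, 8.02, 8.07, 8.24 and 7.71 early and 5.58, 5.27, 4.87, 4.90 and 4.49 late. The rise under gefitinib was 1.47 (SE 0.09, adjusted p = 2.1e-06), the untreated difference was -3.00, and the within-slide difference was 4.47 (SE 0.19, adjusted p = 7.64e-08). TCF7L1, a repressor among the TCF factors, rose by 2.35 (adjusted p = 0.00777) and the secreted inhibitor SFRP1 by 0.83 (adjusted p = 2.86e-05). The ligand WNT10A rose from a mean of 9.44 to 10.54 (adjusted p = 0.000192). CTNNB1, which encodes beta-catenin, rose by 0.87 (adjusted p = 0.0151). With the brightest probe in place of the most variable one it differed by -0.12, so its direction depends on the probe. The Wnt effector LEF1 rose by 0.39, the receptor FZD3 by 0.59 and RNF43, which removes Wnt receptors, by 0.57, the last well above background on 2 of 5 arrays in each group. DKK3 (-0.96), the receptor FZD7 (-0.56) and GSK3B (-0.48) and AXIN1 (-0.45) of the complex that destroys beta-catenin fell. FZD5 (-0.14, adjusted p = 0.195) and DKK1 (-0.27, adjusted p = 0.276) did not pass. Of 11 YAP-TEAD target genes 4 rose and 1 fell, with CCN2 at 1.23 and AMOTL2 at 1.20.

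Of 15 circadian clock genes, 7 fell and 1 rose (18.8% and 21.8% over all genes, median -0.37, untreated -0.04). PER1, a repressor of the clock, read 10.08, 9.91, 10.39, 9.93 and 9.97 early and 8.73, 8.68, 8.85, 8.74 and 8.90 late. It fell by 1.28 (adjusted p = 9.94e-06) against 0.26 without treatment, and the nearest values of the groups were about 1 log2 unit apart. CIART (-1.21), RORA (-1.07), NPAS2 (-1.04, with a second probe at 0.16), NR1D2 (-0.99), TEF (-0.86) and CLOCK (-0.36) fell too, and BHLHE40, a repressor of the clock that also answers growth signals, rose by 1.43 (adjusted p = 0.00028). The core clock factor BMAL1 differed by 0.23 (adjusted p = 0.255). The letters CACGTG stood in 5 of 15 windows of the group and 6.49% of all windows. Late minus early values compare only 2 windows of hours and cannot show a rhythm, and the hourly course was not tested for one.

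Of 14 lung lineage genes 6 rose and 1 fell, where 21.8% and 18.8% of all genes were called. The mucin MUC1 read 8.65, 8.46, 8.63, 8.42 and 8.62 early and 10.57, 10.52, 10.60, 10.64 and 10.57 late. It rose by 2.02 (SE 0.08, adjusted p = 8.38e-08) without overlap, while the untreated difference was -0.60. The pioneer factor FOXA1 rose by 1.03 (adjusted p = 0.00146), the club cell protein SCGB1A1 by 1.32, as in untreated cells (1.19), and surfactant protein SFTPC by 1.50. For SFTPC the brightest probe gave -0.29. LAMP3 of lamellar bodies fell by 1.96, as without treatment (-1.96). Of 16 epithelial genes 6 rose and 4 fell, with KRT8 at 0.79, E-cadherin (CDH1) at -0.67 and the junction protein TJP1 at -0.83. Of 7 mesenchymal genes 2 rose, fibronectin FN1 (2.65, adjusted p = 1.27e-06, well above background on 3 of 5 early arrays) and SNAI2 (0.84), and 2 fell, vimentin VIM (-0.84, adjusted p = 0.00561) and TWIST1 (-0.36).

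Markers of cells that a pure line should not hold moved as well. Of 16 leukocyte, fibroblast and endothelial markers 6 could be tested, and 4 rose and 1 fell (21.8% and 18.8% over all genes). In untreated cells 0 were higher and 2 lower, and within slides 3 were called above and 0 below untreated cells. PECAM1, an endothelial adhesion molecule, read 8.14, 7.73, 7.63, 7.20 and 7.04 early and 9.79, 9.84, 9.75, 9.93 and 9.85 late and rose by 2.28 (adjusted p = 8.1e-06), against 0.25 in untreated cells. VWF rose by 1.50 and CD14 by 0.86, and CD68 fell by 0.54. The log2 of the summed signal of the 6 ran from 9.68 to 10.00 early and from 10.71 to 10.84 late. The defining markers PTPRC, COL1A2, COL3A1, PDGFRA, LUM and KDR were well above background on 0 of 10 arrays, CDH5 on 2, DCN on 3 and CD3E on 6. The part of such cells in the other results was not tested.

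Of 17 FOXO target genes 5 rose and 1 fell, with the insulin receptor INSR at 0.86 (adjusted p = 0.00654) and the repressor BCL6 at 0.75 (adjusted p = 0.000876). Of 11 MYC network genes 2 rose and 2 fell, with MXD1, an antagonist of MYC, at -1.62 (adjusted p = 0.000956) and MYC itself at 1.20 (adjusted p = 0.0111) but well above background on 1 early and 2 late arrays. Of 11 NRF2 target genes 2 rose and 4 fell, SLC7A11 most. Of 20 lysosome and autophagy genes 5 rose and 2 fell, with cathepsin A (CTSA) at 0.57 and the autophagy receptor SQSTM1 at -0.60. Of 12 ER chaperone genes 1 rose, XBP1 (0.70), and 3 fell, DNAJB9 most (-1.08). Of 10 heat shock genes 2 rose, HSPA1A (0.84) and HSPB1 (0.33), and 0 fell. Of 17 ribosome biogenesis genes 1 rose, NOP56 (0.50), and 3 fell, and of 17 respiratory chain genes 0 rose and 1 fell, NDUFS1 (-0.47). Against the 21.8% and 18.8% of all genes called higher and lower, the FOXO, MYC and lysosome counts of rises are near the background, and for the respiratory group both counts lie below it.

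**Figure D4:**
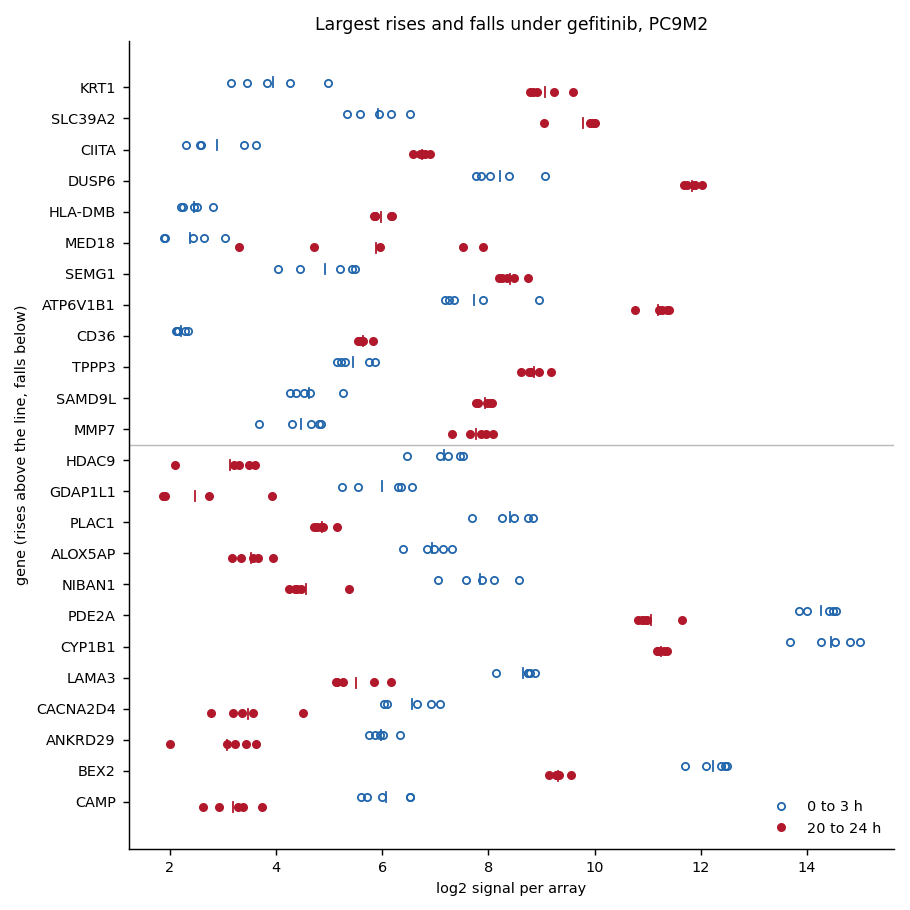
Log2 signal per array (horizontal axis) of the 12 genes with the largest rise (above the line) and the 12 with the largest fall (below it) under gefitinib in PC9M2, at 0 to 3 h (open circles) and 20 to 24 h (filled circles), with bars at the means of 5 arrays. The groups of each gene do not overlap, and the late values of MED18 spread most.

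The 12 largest rises among genes whose groups did not overlap ran from 3.31 to 5.14 on the log2 scale, where the sizes of genes not above background in the early group are open. KRT1, a keratin of the suprabasal epidermis, read 3.82, 3.15, 3.45, 4.26 and 4.99 early and 8.92, 8.79, 9.23, 9.59 and 8.83 late. Its measured difference was 5.14 (SE 0.31, adjusted p = 1.81e-06), but only 1 of 5 early arrays was well above background, so that the size rests mostly on background signal. In untreated cells 0 of 5 late arrays were well above background. The zinc transporter SLC39A2 read 5.34, 5.58, 5.95, 6.16 and 6.52 early and 10.00, 9.93, 9.92, 9.99 and 9.05 late and rose by 3.87 (adjusted p = 2.25e-06, untreated 0.98). ATP6V1B1, a subunit of the proton pump, rose by 3.47, the tubulin-binding TPPP3 by 3.41 and the interferon-induced SAMD9L by 3.32, with -0.91, -0.10 and 0.49 in untreated cells. SAMD9L was well above background on only 3 of 5 early arrays. The fatty acid receptor CD36 was at least 3.16-fold higher, since no early array was well above background for it. SEMG1 rose by 3.48, but also by 2.07 in untreated cells, and its within-slide difference was 1.41 (adjusted p = 0.0011). The matrix metalloprotease MMP7 rose by 3.31 and in untreated cells by 2.84, and was not called within slides (adjusted p = 0.255). For MMP7 only 3 of 5 early arrays were well above background. MED18, a Mediator subunit that was well above background on 0 of 5 early arrays, read 1.90, 2.44, 1.88, 3.04 and 2.64 early and 7.90, 7.52, 4.71, 5.96 and 3.30 late. Its late arrays spread with an SD of 1.92, its untreated difference was 3.07, and within slides it was not called (adjusted p = 0.595).

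The 12 largest falls ran from -2.88 to -4.02, likewise with open sizes for genes near background late. HDAC9, a class IIa histone deacetylase, read 7.23, 7.52, 7.09, 7.47 and 6.47 early and 3.21, 2.09, 3.49, 3.31 and 3.60 late. Its measured difference was -4.02 (SE 0.29, adjusted p = 4.44e-06), against -1.03 in untreated cells, but only 1 of 5 late arrays was well above background, so that its size rests mostly on background signal. ALOX5AP, which serves leukotriene synthesis, was at least 7.17-fold lower late, with no late array well above background. The cyclic nucleotide phosphodiesterase PDE2A read 13.86 to 14.55 early and 10.82 to 11.66 late and fell by 3.20 (adjusted p = 1.6e-06, untreated -1.48). LAMA3, a chain of the epithelial basement membrane laminin (-3.15), the placental gene PLAC1 (-3.53), the stress gene NIBAN1 (-3.27), the calcium channel subunit CACNA2D4 (-3.08), GDAP1L1 (-3.53), ANKRD29 (-2.91) and BEX2 (-2.91) fell as well. For CACNA2D4, GDAP1L1, ANKRD29 and CAMP 1 of 5 late arrays was well above background and for NIBAN1 2 of 5, so that their sizes are open too. All 12 were lower late in untreated cells too, past the threshold. For CYP1B1, a target of the aryl hydrocarbon receptor, that difference was -2.89 against a fall of -3.20 under gefitinib, and within slides it was not called (adjusted p = 0.213). The antimicrobial peptide gene CAMP, which fell by 2.88, had an untreated difference of -3.44 and was not called within slides either (adjusted p = 0.094), nor was ANKRD29 (adjusted p = 0.0791).

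Among genes called with the same sign in both comparisons, the 6 highest and 6 lowest within-slide differences were read out. CCDC180 read 6.05 to 6.71 early and 7.72 to 7.93 late under gefitinib and 5.89 to 6.64 early and 1.87 to 1.94 late without treatment, a within-slide difference of 5.66 (SE 0.18, adjusted p = 3.81e-08). No late untreated array was well above background for CCDC180, so that the size is not measured, and its direction turned with the brightest probe, to -0.15 under gefitinib and -0.53 within slides. NEK3, a mitotic-type kinase, rose by 0.34 under gefitinib and was well above background on 5 of 5 early and 0 of 5 late untreated arrays, so that its size within slides is not measured either. SPEF2, of the sperm flagellum and motile cilia, gave 4.54, and the lung monooxygenase CYP4B1 rose by 3.24 and gave 4.51. KRT1 and AXIN2 complete the 6. On the other side CIB3 read 6.72 to 7.51 early and 5.88 to 6.35 late under gefitinib and 6.54 to 7.14 and 9.82 to 11.28 without it, with -4.78 within slides (adjusted p = 7.46e-07). The secretogranin SCG2 gave -4.23, the plasma protein HRG -4.17, the small GTPase ARL14 -4.05 and the basic helix-loop-helix factor ARNT2 -3.73. Each of these fell under gefitinib (late minus early -0.90, -2.11, -2.58 and -1.39) and was higher late without it past the threshold.

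At 9 to 14 h, against the mean of the early and late hours, 2467 genes (18.6%) were higher and 2204 (16.6%) lower. Of those 6 hours 5 are on the slides of 10 to 15 h that stood apart in both treatments. On the within-slide difference 804 genes were called, and 383 genes were called in the same direction in both. Of the 8 largest such differences only FMO5, a flavin monooxygenase, and MYLK, the myosin light chain kinase, were called within slides too, at 2.69 (adjusted p = 0.000315) and 1.67 (adjusted p = 0.0421). Under gefitinib they were 2.26 and 2.07. DOCK8 (2.36) and PFKFB3 (2.43) on the high side and TNRC18 (-4.13), GPR153 (-4.07), PRR7 (-4.02) and SLC26A1 (-3.63) on the low side were not. TNRC18 read 8.54 to 9.96 at 10 to 15 h and 12.91 to 15.70 at the other hours under gefitinib, and 9.20 to 11.39 against 12.46 to 15.74 without treatment.

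**Figure D5:**
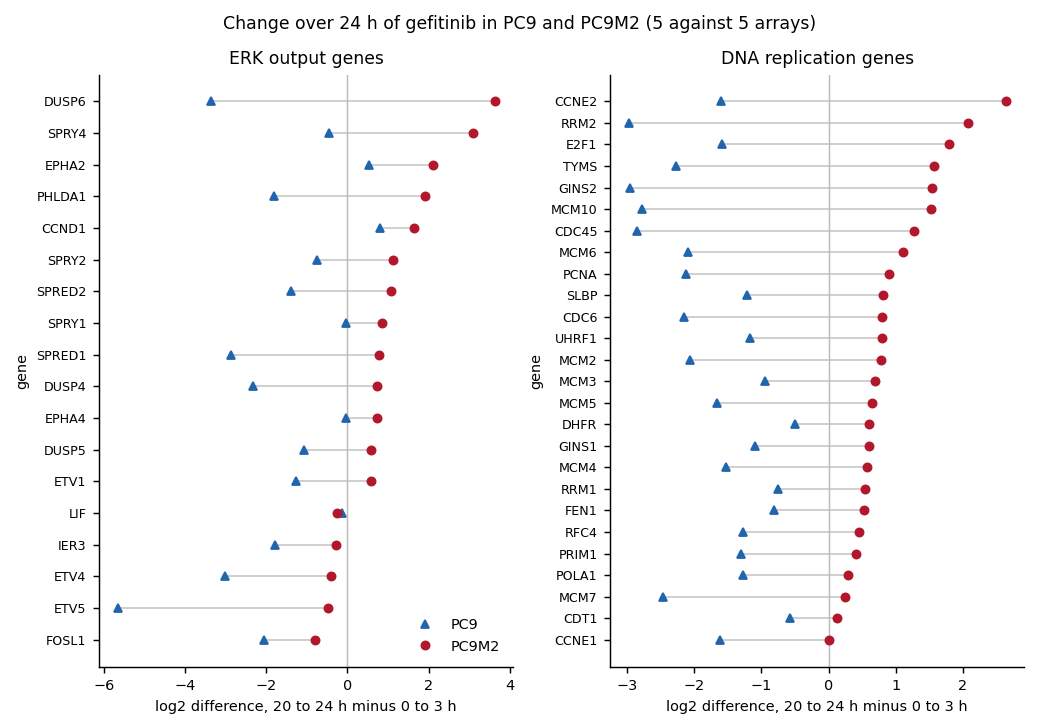
Late minus early log2 difference under gefitinib (horizontal axis) of each ERK output gene and each DNA replication gene tested (vertical axes) in PC9M2 (circles) and PC9 (triangles), 5 against 5 arrays in each line. For every replication gene PC9M2 lies above PC9, and DUSP6 differs most, at 3.63 against -3.35.

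PC9 cells were sampled under the same dose at the same hours, and the comparison of the lines uses the same PC9M2 arrays as the results above. The late minus early difference was higher in PC9M2 for 3549 genes (26.8%) and lower for 3275 (24.7%). The lines share no slide, so line cannot be told apart from slide here. The arrays of the lines also differed in depth. In PC9 under gefitinib 33271 to 35938 features lay well above background early and 26384 to 29459 late. In PC9M2 the ranges were 28809 to 32488 and 29028 to 32950. Up to 1113 features were saturated on early PC9 arrays and up to 608 on late ones, against 0 in PC9M2. The part of this drop in PC9 in the differences between the lines was not tested. Of 18 ERK output genes 15 were higher in PC9M2 and 0 lower, and of 26 DNA replication genes 26 were higher. Their medians over 24 h were 0.75 and 0.74 in PC9M2 and -1.33 and -1.60 in PC9. Taken on the difference from untreated cells within slides, the median differences between the lines were 1.97 and 1.89. DUSP6 went from 8.77 to 5.42 in PC9 and from 8.22 to 11.84 in PC9M2, a difference of 6.98 (SE 0.33, adjusted p = 1.47e-11). ETV5 and SPRED1 were well above background on 5 of 5 early and 0 of 5 late PC9 arrays, and on 5 of 5 of both in PC9M2. Among the replication genes RRM2 differed by 5.05, GINS2 by 4.51, MCM10 by 4.31 and CDC45 by 4.14, each of them lower late in PC9. Within slides these differences were 3.05, 3.03, 3.38 and 2.57, all past the threshold.

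FGFR1 went by 2.73 in PC9M2 and 3.61 in PC9 (difference -0.88, SE 0.42, adjusted p = 0.087) and FGFR3 by 2.69 and 3.62 (-0.93, SE 0.58, adjusted p = 0.185). AXIN2 went by 1.47 and 1.97 (-0.51, SE 0.22, adjusted p = 0.0613) and TNFSF10 by 2.05 and 2.19 (-0.14, SE 0.51, adjusted p = 0.841). None of these 4 differences passed, which with such errors does not show that the lines moved alike. On the within-slide difference AXIN2 turned to 1.67 (SE 0.25, adjusted p = 7.13e-05), higher in PC9M2 past the threshold, and FGFR1, FGFR3 and TNFSF10 still did not pass. ERBB2, by contrast, went by 0.85 in PC9M2 and 2.91 in PC9 (difference -2.06, adjusted p = 3.07e-07), and PECAM1 by 2.28 and -0.06 (2.34, adjusted p = 2.21e-07). Within slides the difference was -0.68 (adjusted p = 0.0464) for ERBB2 and 2.15 (adjusted p = 5.45e-08) for PECAM1. Of 7 metallothioneins the median in PC9 was -1.17, and MT1F alone differed between the lines past the threshold (-0.50 in PC9M2 and 0.50 in PC9, adjusted p = 1.45e-05).

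The largest differences between the lines beside DUSP6 were those of COL15A1, a basement membrane collagen (5.62), and SEMG1 (5.51) on the side of PC9M2. COL15A1 was well above background on 0 early and 2 late arrays of PC9M2, so that its size is not measured there, and in PC9, where 1 of 5 late arrays was well above background, it went from 7.44 to 3.95. SEMG1 went from 9.74 to 7.70 in PC9. On the other side were PFKFB3, which sets the pace of glycolysis (-5.39), the costimulatory CD86 (-3.93) and NEK3 (-3.85). PFKFB3 read 9.42, 5.83, 8.24, 6.42 and 10.73 early and 4.76, 5.91, 4.60, 4.67 and 4.87 late in PC9M2, with an early SD of 2.04, and CD86 read 5.19, 9.39, 9.57, 9.11 and 7.35 early and 7.51, 6.39, 8.83, 8.94 and 7.77 late. Another PFKFB3 probe read 8.94 early and 9.73 late, so that its direction depends on the probe. On the within-slide difference CD86 turned to 0.31, and neither it (adjusted p = 0.826) nor NEK3 (-0.66, adjusted p = 0.328) was called. COL15A1 (2.73), SEMG1 (3.50) and PFKFB3 (-3.08) kept their call with smaller values, and DUSP6 gave 6.60. NEK3 went by 4.19 in PC9, where it was 4.19 early, from a level well below the 7.91 of PC9M2.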

How the data were processed

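Total RNA of each sample was labelled with Cy3 and hybridised to 1 one-colour Agilent whole human genome array. The authors deposited each array's scanner output, whose processed signal is an intensity already corrected for background (Feature Extraction 10.5.1.1 per the file headers), and a table of normalized intensities, used only as an alternative. Here that deposited intensity was quantile normalized over all arrays of the series and its log2 taken (floor 1). Outlier spots were left out after that step, 0.0098% of gene values on the 10 compared arrays. RefSeq accessions gave symbols to 24794 of 41000 probes. The most variable probe stood for each gene, and 13263 of 16961 genes were tested, those well above background on at least 13 of 26 arrays of a course. Groups came from the sample labels. Tests used limma 3.58.1 in R 4.3.3, two-sided, with Benjamini-Hochberg adjustment over all tested genes. The named genes were the 12 largest rises and 12 largest falls whose groups did not overlap, the 6 largest within-slide differences each way, the 4 largest each way at 9 to 14 h, the 3 largest each way between the lines, and list members. The members and lists were chosen with earlier results of these data known. Some list members are counted but not reported here by name. The files hold median and not mean spot signals, so the normexp alternative used medians. No batch other than slide, scan day and position on the slide was looked at. In PC9M2 every gefitinib array was at position 4 of its slide and every untreated array at position 1. Position therefore cannot be told apart from treatment in the gefitinib minus untreated differences. On simulated data a log2 change of 1 in 200 genes was recovered for 77% in the late against early comparison and 48.5% within slides. False calls made up 4.94% and 10.2% of the calls. The simulated noise was independent for each array, without a slide effect shared by treatments or correlation between hours. These figures therefore do not give the power or error rate of the real within-slide comparison. The number of arrays limits the precision.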

Additional observations from a re-analysis of the deposited data

Results flagged for a closer look

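Of 308 groups of 5 arrays, for 154 genes named or listed, 18 (5.8%) held 1 array far from the other 4, with a gap over 0.71 of the group's range, and chance flags about 1 group in 20. Among early arrays the outlying log2 signals were 6.65 for CCND1, 5.86 for CIART, 8.15 for LAMA3 and 9.45 for NR1D2 at 2 h, 9.75 for JUN and 2.63 for TCF7L1 at 0 h, 2.55 for COL15A1 at 0.5 h and 6.33 for SFTPC at 1 h. Among late arrays they were 8.49 for BIK, 5.37 for NIBAN1, 11.66 for PDE2A, 7.66 for SCGB1A1, 9.05 for SLC39A2 and 7.27 for VWF at 24 h, 2.09 for HDAC9, 8.18 for MT1E and 5.91 for PFKFB3 at 21 h, and 5.62 for ERBB4 at 20 h. The 24 h array accounted for 6 of the 18 and the 2 h array for 4.

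The late minus early difference under gefitinib differed between PC9M2 and PC9 by an interaction test for DUSP6 (6.98), COL15A1 (5.62), SEMG1 (5.51), NEK3 (-3.85), CD86 (-3.93) and PFKFB3 (-5.39), the 6 largest by the rule for named genes. Within slides NEK3 (-0.66) and CD86 (0.31) were not called, and COL15A1 (2.73), SEMG1 (3.50) and PFKFB3 (-3.08) were smaller.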

How the results depend on the processing

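The 5380 genes called late against early numbered 4465 to 5628 when each array was left out in turn and 3709 to 5695 under the other alternatives, except that 1237 were also at least 2-fold different. The lowest of these came from the late hours 22, 23 and 24 only and the highest from scan day as a random block. The 6370 calls within slides numbered 5670 to 6744 with an array left out and 2246 at 2-fold. With the time point as replicate block and an interaction term 6370 were called, as in the paired differences, which share a slide by design. The 1555 slopes fell to 45 with every second hour, which uses fewer arrays. Chosen after seeing the data, slopes without the 10 to 15 h slides numbered 1942 and within slides 2245, the 9 to 14 h calls within slides 804, and the calls between lines within slides 3711. With the brightest probe per gene the medians of BCL2 survival and effector genes (0.07) and fatty acid synthesis genes (0.09) turned, as did CTNNB1 (-0.12), SFTPC (-0.29) and CCDC180 (-0.15) late against early, and SFTPC (-0.094) and CCDC180 (-0.53) within slides. PHLDA1 within slides turned with normexp (-0.14), and between the lines CD86 (0.31) and AXIN2 (1.67) turned within slides and NEK3 (-0.66) lost its call. The causes were not tested. Of 144 named or listed genes called late against early, 120 kept their call under every alternative that tested them, and of 110 within slides, 89 did, but the filter for all 10 arrays well above background tested only 115 and 92 of them. Weak and dim probes limit the sizes given here.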
